A study of Homo sapiens with 16 samples.

Results

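The 10 genes described here encode the proteins that bind the poly(A) tail of mRNA and their close partners. They were chosen by name (PABPN1, PABPC1, PABPC4, PAIP1, PAIP2, PAN2, PAN3, LARP1, LARP4 and LARP4B), and all 10 were found among the 60107 genes listed in each library. The data were QuantSeq REV counts, in which each sequence tag comes from the 3′ end of a polyadenylated RNA next to its tail. The RNA was cytoplasmic RNA of U2OS-TR cells, which are human osteosarcoma cells with a stably integrated tetracycline repressor. The study asked which transcripts change when methylation of caps added in the cytoplasm is blocked.

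Uninduced (n = 5) and induced (n = 5) libraries came from U2OS-TR/ΔN-RNMT cells. These carry ΔN-RNMT, a shortened cap methyltransferase with an inactivating mutation that is held in the cytoplasm, under a CMV promoter with tetracycline operators. The line is 1 clone, picked by the authors for its strong expression of the transgene. Parental U2OS-TR cells, which lack the transgene, gave 3 libraries without and 3 with doxycycline. Cells were split and treated after 48 h, with 1 μg/ml doxycycline in the recorded protocol, and lysed 24 h later. All 4 groups carry the tetracycline repressor, and both arms of the transgene line carry the transgene. The libraries of the transgene line were described as biological replicates and the parental ones as coming from separate cultures.

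The poly(A) tail is added in the nucleus, where PABPN1 coats the growing tail and stimulates poly(A) polymerase. In the cytoplasm PABPC proteins take over and contact the translation initiation factor eIF4G, while PAIP1 and PAIP2 bind PABPC and have opposite effects on translation. PAN2 and PAN3 form a deadenylase that is recruited through PABPC, and the La-related proteins LARP1, LARP4 and LARP4B bind PABPC and affect the translation and stability of mRNAs.

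Because each tag lies beside the tail, the annotated 3′ ends decide which gene a tag is counted on. The windows below hold the poly(A) signal nearest to the end of the canonical transcript, read 5′ to 3′ on the strand of the gene from GENCODE release 44, with the hexamer in capitals. They are given for the 4 genes called higher after induction, for the readthrough gene that shares the end of PABPN1, and for the pair LARP4 and LARP4B, whose hexamer differs from that of the others.
PABPN1 (chr14:23326150-23326163, forward strand): tttgaaAATAAAaa
BCL2L2-PABPN1 (chr14:23326150-23326175, forward strand): tttgaaAATAAAaattgtttggcctt
PAIP1 (chr5:43526273-43526302, reverse strand): tttgaaAATAAAgcttaaatagttgtttcc
PAIP2 (chr5:139369691-139369717, forward strand): taaaaaAATAAAtaatagtagaactga
PAN2 (chr12:56316940-56316969, reverse strand): aataaaAATAAAatatcgtttgttatttat
LARP4 (chr12:50479988-50480004, forward strand): aaaattATTAAAaagca
LARP4B (chr10:809497-809525, reverse strand): ttttaaATTAAAatttcttcaataatgca

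AATAAA or ATTAAA was found in the last 50 bases of the canonical transcript of all 10 genes, searched on the transcript strand only, against 77.4% of 20046 canonical protein-coding transcripts. The signal of PABPN1 is the same genomic hexamer as that of BCL2L2-PABPN1, which joins PABPN1 to its upstream neighbour BCL2L2. All of the last 75 exonic bases of PABPN1 lie within exons of the readthrough gene on the same strand. BCL2L2-PABPN1 nevertheless held 0 counts in all 16 libraries while PABPN1 held 45 to 3648, so RNA from the 2 transcripts cannot be told apart in these counts. The last 75 bases of PAIP2 and of PAN2 are overlapped by long noncoding genes on the opposite strand. MIR7705, a microRNA gene on the same strand as PABPC1, overlaps 23 of its last 75 bases, and the effect on its counts was not tested. Neither the annotation release nor the use of strand in the counting is stated in the sources used here. The antisense gene at PAIP2 (ENSG00000272742) had 0 counts in the transgene line and up to 152 in a parental library. CNPY2-AS1, the antisense gene at PAN2, had 60 to 198 counts per uninduced and 107 to 170 per induced library, more than PAN2 itself in each. PABPC1 has 13 pseudogenes by name, and tags that align to more than 1 place were left out of the counts, so its level is uncertain. Of those pseudogenes, the one with most counts had at most 4 in a library.

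Depth was 12527183 to 23251834 gene counts per library in the transgene line and 1473286 to 3214808 in the parental line. Levels are given as CPM, the count of a gene over the mega-counts of its library, scaled with edgeR's TMM factors within each line. The osteoblast-lineage genes SPARC, COL1A1 and RUNX2 had counts in every library, whereas SP7 and BGLAP were at 0 in all. COL1A2 was at 0 outside the induced libraries (at most 0.0746 CPM there). IBSP was at 0 outside the parental libraries with doxycycline (at most 0.815 CPM there). ALPL reached at most 1.21 CPM in any library, and SPP1 at most 0.954 CPM in the transgene line. The summed level of 4 epithelial markers was 5.13 to 12.8 CPM in uninduced and 7.43 to 16.6 in induced libraries, and its part in the results was not tested. Haematopoietic and endothelial markers summed to at most 1.63 CPM in any library.

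RNMT, the source of the transgene, served as a check of the labels. It was 66.2, 55.6, 62.7, 74.6 and 112 CPM in uninduced replicates 1 to 5, against 278, 360.4, 266, 458 and 368 in the induced ones. The groups did not overlap. Over all tested genes, however, 2 libraries lay nearer to the other group than to their own. Uninduced replicate 5 lay nearer to the mean of the induced libraries (root-mean-square log2 distance 0.369) than to that of the other uninduced ones (0.963). Induced replicate 2 lay nearer to the uninduced mean (0.444) than to the mean of the other induced libraries (0.778). The RNMT levels of these 2 libraries followed their labels. Uninduced replicate 3 also lay far from the mean of the other uninduced libraries (0.775), but farther still from the induced mean (1.37). The number of genes called is given below with and without uninduced replicate 5 and induced replicate 2. Fits without 1 of these are given for some genes, and the ratios and gene lists include both.

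Induction of ΔN-RNMT was followed by higher PABPN1, PAIP1, PAIP2 and PAN2 RNA. These 4 of the 10 genes were called higher and 0 were called lower at an adjusted P below 0.05 from edgeR's quasi-likelihood test. Of all 13038 genes tested, 39.8% were called, 20.0% higher and 19.8% lower. The fitted log2 fold change was above 0 for 9 of the 10 genes, against 52.1% of all genes, with a median of 0.71 against 0.04. The genes were chosen with earlier results of these data known, so the comparison with all genes is a description only. DESeq2 called 6 of the 10 higher (LARP1 and LARP4B in addition), against 22.4% of all genes. Without uninduced replicate 5 and induced replicate 2, 7 of the 10 genes were called higher, but so were 33.8% of all genes. With 1 surrogate variable as a covariate, 0 of the 10 were called, and only 1 of all tested genes was. With scaling by total counts alone, the median of all genes moved to 0.28, 4022 genes (30.8%) were called higher and 1401 lower, and 7 of the 10 genes were called higher. Changes are therefore relative to the TMM reference, and fewer cells with an RNA cannot be told apart from less of it per cell.

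**Figure D1:**
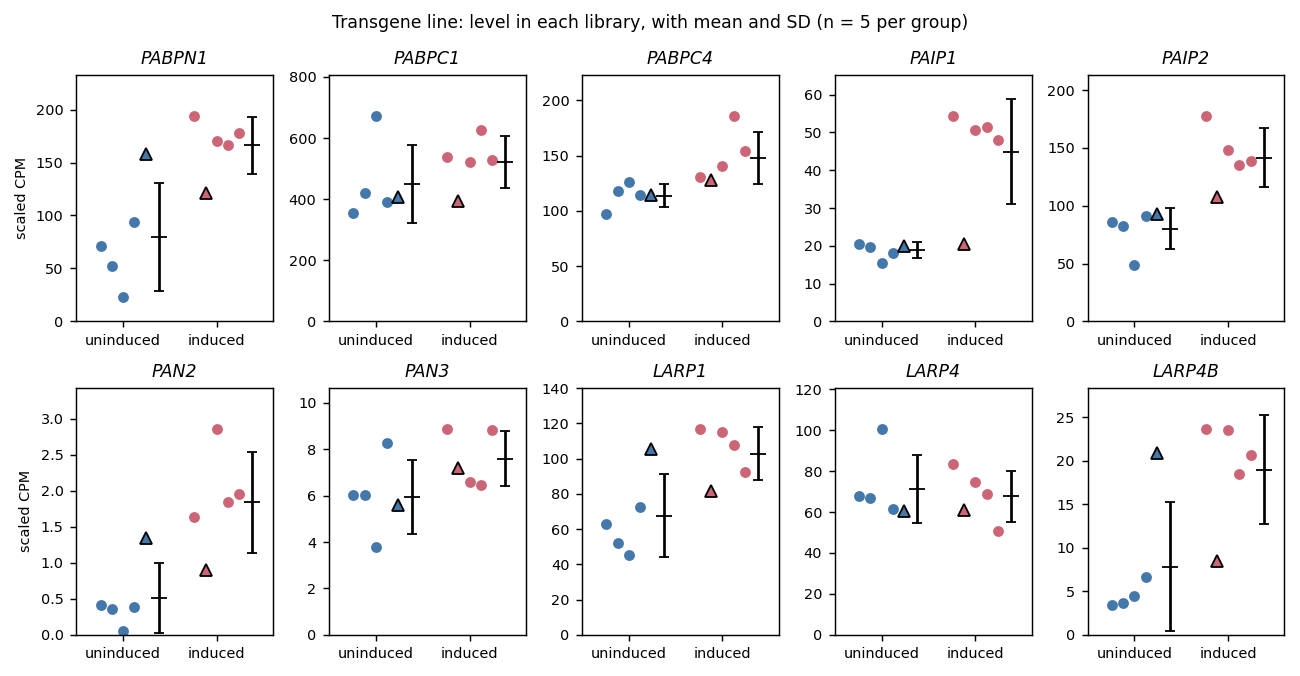
Level of each gene (scaled CPM, linear axis from 0) in the 5 uninduced (blue) and 5 induced (red) libraries of the transgene line, with the mean and SD beside each group. Triangles mark uninduced replicate 5 and induced replicate 2, and in the panels of PABPN1, PABPC1, PAN2, LARP1 and LARP4B the blue triangle lies above the red one.

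PABPN1, the nuclear poly(A)-binding protein, lies on chromosome 14 from 23321457 to 23326163 of GRCh38. In uninduced replicates 1 to 5 its level was 71.1, 52.4, 23.0, 93.8 and 158 CPM. In induced replicates 1 to 5 it was 194, 122, 170.3, 166 and 178 CPM. The uninduced libraries ran from replicate 3, the lowest, to replicate 5, and replicate 5 alone overlapped the induced range. Means were 79.7 ± 51.0 (SD, n = 5) and 166 ± 27.1 (SD, n = 5). PABPN1 rose 2.08-fold (log2 fold change 1.06, standard error 0.39, adjusted P = 0.0495 by edgeR with Benjamini-Hochberg adjustment). The call was at the edge of the threshold, and it held in 2 of the 10 fits that leave out 1 library, those without uninduced replicate 5 (adjusted P = 0.00248) and without induced replicate 2. The other 8 gave log2 fold changes of 0.81 to 1.12, all above 0, with adjusted P up to 0.112.

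BCL2L2, a survival factor of the BCL2 family that lies upstream of PABPN1 and joins it in the readthrough transcript, was 0.559, 0.643, 0.945, 0.871 and 1.30 CPM in uninduced libraries. Its induced levels were 7.83, 0.894, 9.14, 3.83 and 7.42 CPM, so that only induced replicate 2 stayed in the uninduced range. BCL2L2 rose 6.61-fold (log2 fold change 2.72, standard error 0.52, adjusted P = 0.0175 by edgeR). Its counts were 11, 11, 17, 18 and 30 in uninduced libraries and 105, 19, 144, 83 and 125 in induced ones. It thus passed the filter on low counts (a mean normalized count above 20 over both groups) only through the induced libraries.

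Neither cytoplasmic poly(A)-binding protein passed the test. PABPC1, the main cytoplasmic form, lies on chromosome 8 from 100685816 to 100722809. It was 355, 419, 673, 391 and 406 CPM in uninduced libraries and 539, 393, 521, 627 and 529 CPM in induced ones. Uninduced replicate 3 was the highest of all 10, and the groups overlapped. The log2 fold change of 0.22 (standard error 0.20) was not called by edgeR (adjusted P = 0.387).

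PABPC4, a second cytoplasmic form first known from activated T cells and platelets, lies on chromosome 1 from 39560709 to 39576790. Its level was 96.8, 118, 126, 114 and 114 CPM without and 131, 128, 140.3, 186 and 154 CPM with induction. Every induced library was above every uninduced one, which was so for 2 of the 10 genes, against 3.08% of all tested genes that did not overlap and were higher. The log2 fold change was nevertheless only 0.38, with a standard error of 0.15, and it missed the threshold in edgeR (adjusted P = 0.0588). With offsets for GC content it was 0.55 and was called (adjusted P = 0.0294), in a fit that called 11.9% of all genes higher.

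PAIP1, which bridges PABPC and the initiation machinery and stimulates translation, lies on chromosome 5 from 43526267 to 43557758. It was 20.6, 19.8, 15.4, 18.1 and 20.0 CPM in uninduced libraries, the second tightest of the 10 genes in that group after PABPC4. Among induced libraries it was 54.4, 20.4, 50.6, 51.3 and 48.0 CPM. Induced replicate 2 thus lay within the uninduced range, and the other 4 were all above it. PAIP1 rose 2.39-fold (log2 fold change 1.26, standard error 0.24, adjusted P = 0.0175 by edgeR). It was called in all 10 fits that leave out 1 library, but with adjusted P up to 0.0495 by edgeR, just inside the threshold.

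PAIP2, which displaces PABPC from the tail and represses translation, lies on the same chromosome from 139341587 to 139369720. Uninduced levels were 85.7, 82.8, 49.1, 91.1 and 93.0 CPM, and induced levels were 178, 107, 149, 135 and 139 CPM. The groups did not overlap. Its rise was 1.76-fold (log2 fold change 0.82, standard error 0.20, adjusted P = 0.0176 by edgeR). All 10 fits with 1 library left out called it, but with adjusted P up to 0.0495 by edgeR. Over all tested genes the changes varied with GC content. The 3231 genes lowest in GC (up to 41.9%) had a median log2 fold change of 0.43, and the 3232 highest (from 56.5%) had -0.46. PAIP2 has 39.0% GC, and with offsets for GC its log2 fold change was 0.38 and no longer called (adjusted P = 0.085).

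PAN2, the catalytic subunit of the PAN2-PAN3 deadenylase, lies on chromosome 12 from 56316223 to 56334053 and was sparsely counted. Uninduced libraries held 8, 6, 1, 8 and 31 counts, and induced libraries 22, 19, 45, 40 and 33. In scaled terms this was 0.406, 0.351, 0.0556, 0.387 and 1.34 CPM against 1.64, 0.894, 2.85, 1.84 and 1.96 CPM. Uninduced replicate 5 lay above induced replicate 2, and no other pair crossed. PAN2 rose 3.45-fold (log2 fold change 1.79, standard error 0.54, adjusted P = 0.0255 by edgeR). Without uninduced replicate 5 the log2 fold change was 2.55 (adjusted P = 0.000748). Of the 10 fits that leave out 1 library, 8 kept PAN2 above the filter on low counts and 4 of these called it. The filter asked for a mean normalized count above 20 over both groups. All uninduced counts except that of replicate 5 were below 20, so PAN2 passed it only through the induced libraries. It was lost from the fits without induced replicate 3 or 4. Its call is to be read with that limit.

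PAN3, the subunit that binds PABPC and brings PAN2 to the tail, lies on chromosome 13 from 28138506 to 28295335. It was 6.04, 6.02, 3.78, 8.28 and 5.60 CPM in uninduced and 8.87, 7.20, 6.60, 6.45 and 8.85 CPM in induced libraries. The groups overlapped, and the log2 fold change of 0.35 (standard error 0.21) was not called by edgeR (adjusted P = 0.186).

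LARP1, which binds the cap and the 5′-terminal oligopyrimidine motif of TOP mRNAs, lies on chromosome 5 from 154682986 to 154817605. Levels were 62.8, 52.3, 45.1, 72.6 and 106 CPM without and 117, 81.9, 115, 108 and 92.6 CPM with induction. Only uninduced replicate 5 reached the induced range. The log2 fold change was 0.60 (standard error 0.22), and its adjusted P of 0.0502 in edgeR lay just past the threshold, whereas that of PABPN1 lay just inside it. Without uninduced replicate 5 it was 0.81 (adjusted P = 0.00272), in a fit that called 31.2% of all genes higher. LARP1 was called in 2 of the 10 fits that leave out 1 library, with adjusted P up to 0.121.

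LARP4 and LARP4B, closely related proteins that bind PABPC and protect mRNA tails, were both uncalled. LARP4 lies on chromosome 12 from 50392383 to 50480004. It was 67.8, 66.7, 101, 61.5 and 60.3 CPM in uninduced and 83.6, 61.1, 74.5, 68.8 and 50.6 CPM in induced libraries. The groups overlapped, and the fitted log2 difference was -0.08 (standard error 0.19, adjusted P = 0.751 by edgeR). Its sign turned with the scaling, to 0.17 with total counts alone. LARP4 has the lowest GC content of the 10 genes, 35.9%, and with offsets for GC it was called lower, at -0.65 (adjusted P = 0.0426).

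LARP4B lies on chromosome 10 from 806933 to 931821. Uninduced replicates 1 to 4 held 3.45, 3.68, 4.45 and 6.68 CPM, and replicate 5 held 20.9 CPM. Induced levels were 23.6, 8.51, 23.5, 18.5 and 20.7 CPM, with the lowest again in replicate 2. The log2 fold change of 1.27 had a standard error of 0.50 and was not called by edgeR (adjusted P = 0.0587). Without uninduced replicate 5 it was 2.04 (adjusted P = 0.000449), in a fit that called 31.2% of all genes higher. LARP4B was called in 2 of the 10 fits that leave out 1 library, with adjusted P up to 0.121.

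Induced replicate 2 was the lowest induced library for 8 of the 10 genes, and for all 4 that were called. It was also the lowest for 87.3% of all genes called higher. Uninduced replicate 5 was the highest uninduced library for 5 of the 10 genes and 3 of the 4, against 87.2% of all genes called higher. Uninduced replicate 3 was the lowest uninduced library for 6 of the 10 and for all 4 called, against 49.3%.

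**Figure D2:**
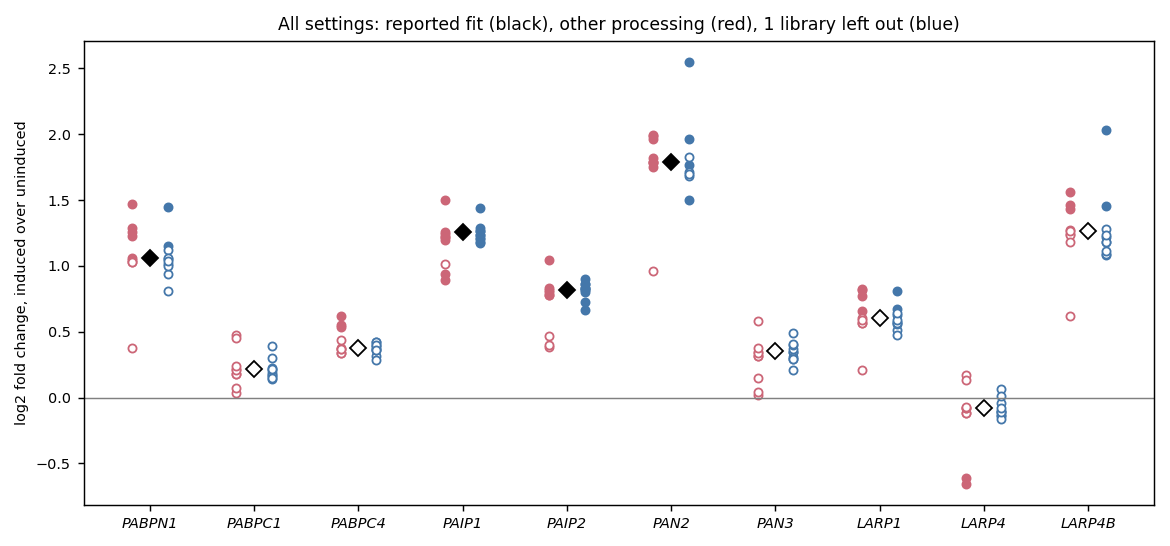
Log2 fold change of each gene, induced over uninduced, in the reported edgeR fit (black diamonds), under other processing settings (red, left) and with 1 library left out (blue, right). Filled symbols passed an adjusted P of 0.05, and PAIP1 is filled in all 10 leave-one-out fits whereas PABPN1 is filled in 2.

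Ratios between genes within a library do not depend on the scaling, and 6 were compared between the groups with exact permutation tests (two-sided). The 6 were chosen after the data were seen, and the P values do not account for that choice. The mean log2 ratio of PAIP1 to PABPC1 was 0.94 higher after induction (exact permutation P = 0.0159, adjusted P = 0.0635). That of PAIP2 to PABPC1 was 0.59 higher (exact permutation P = 0.0317, adjusted P = 0.0635), and that of PABPN1 to PABPC1 was 1.07 higher (exact permutation P = 0.0714, adjusted P = 0.0857). PABPC4 to PABPC1 differed by 0.13 (exact permutation P = 0.444). Within the deadenylase, PAN2 to PAN3 was 1.83 higher (exact permutation P = 0.0317, adjusted P = 0.0635), and LARP4B to LARP4 was 1.63 higher (exact permutation P = 0.0476, adjusted P = 0.0714). The groups overlapped for each ratio, and none passed 0.05 after adjustment over the 6. Uninduced replicate 3 had the lowest uninduced log2 ratio in each case. For PAIP2 to PABPC1 it was -3.78, against -2.34 to -2.05 in the other uninduced libraries. For PAIP1 to PABPC1 it was -5.44 against -4.43 to -4.10, and for PABPN1 to PABPC1 -4.87 against -3.00 to -1.36. The part of this library in the differences was not tested. In the parental line, where 3 libraries against 3 cannot give a two-sided P below 0.1, the ratio of LARP4B to LARP4 was lower with doxycycline without overlap (log2 difference -1.09, exact permutation P = 0.1, adjusted P = 0.6), and the other 5 ratios overlapped. There PAIP1 to PABPC1 was 0.97 higher with doxycycline (exact permutation P = 0.3) and PAIP2 to PABPC1 was 1.74 higher (exact permutation P = 0.2), values no smaller than those after induction of the transgene. PABPN1 to PABPC1 differed by 0.27 (exact permutation P = 0.8), PABPC4 to PABPC1 by -0.34 (exact permutation P = 0.6) and PAN2 to PAN3 by -0.99 (exact permutation P = 0.4).

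Parental cells were treated with doxycycline alone to show what the drug does without the transgene. None of the 10 genes was called by edgeR (lowest adjusted P = 0.997), nor was any of the 9124 genes tested (267 at an unadjusted P below 0.05), and DESeq2 called 0 of the 10 and 1 of all genes. At an unadjusted P below 0.05, 3 of the 10 genes passed, against 2.93% of all genes. The 3 were PABPN1, PABPC1 and PABPC4, and each was lower with doxycycline. ZC3H14, another poly(A)-binding protein tested in this line, had a log2 fold change of 0.30 and was not called either. Fitted changes were above 0 for 2 of the 10, against 49.3% of all genes, with a median of -0.61 against -0.01 over all genes.

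PABPN1 was 267, 119 and 180.0 CPM without and 88.6, 114 and 36.7 CPM with doxycycline (log2 fold change -1.24, standard error 0.49). These groups did not overlap, as was the case for 9.52% of all genes tested in the parental line. PABPC1 was 1895, 939 and 584 CPM without and 185, 329 and 627 CPM with doxycycline (log2 fold change -1.58, standard error 0.58). PABPC4 was 259, 193 and 77.0 CPM without and 13.6, 53.8 and 94.5 CPM with doxycycline (log2 fold change -1.72, standard error 0.66). Both of these overlapped between the groups. With 1 library left out, PABPC1 ran from -2.18 (without treated replicate 3) to -0.91 (without untreated replicate 1), and PABPC4 from -2.41 to -1.23 without the same libraries. PABPN1 ran from -1.55 to -0.83, the latter again without untreated replicate 1.

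The other 7 genes varied widely between parental replicates. PAIP1 ran from 11.4 to 65.8 CPM without doxycycline and from 10.0 to 53.0 CPM with it. PAN2 rested on 1 to 41 counts per library. LARP1 was 145, 143 and 145 CPM without the drug and 103, 144 and 71.7 CPM with it, so that the treated libraries alone were spread. The log2 fold changes of the 7 lay between -0.92 for PAN2 and 0.33 for LARP4, and those of PAIP1, PAIP2 and PAN3 changed sign when 1 library was left out.

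**Figure D3:**
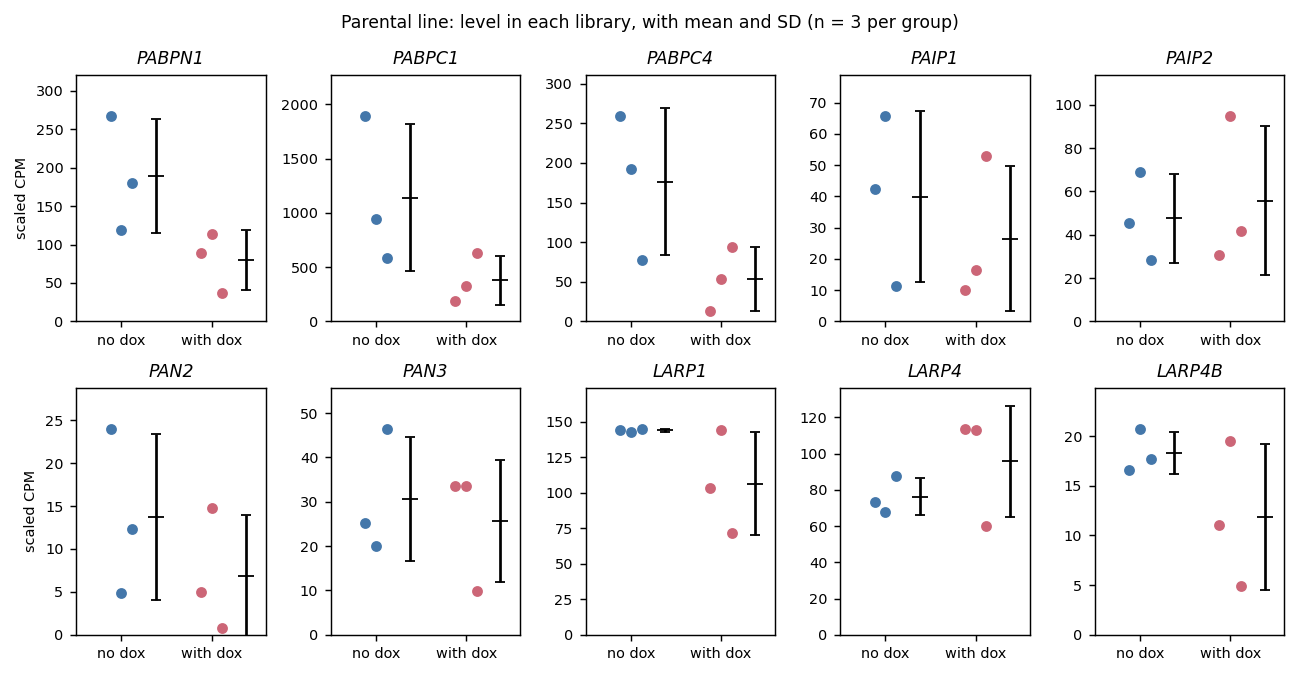
Level of each gene (scaled CPM, linear axis from 0) in the 3 parental libraries without (blue) and 3 with doxycycline (red), with the mean and SD beside each group. Only PABPN1 shows no overlap between the groups, the lower SD bar of PAN2 with doxycycline is cut at 0, and levels were scaled within this line, apart from the transgene line.

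The difference between the lines was tested as a contrast over all 16 libraries. None of the 10 genes was called by edgeR, while 365 of 12265 genes (2.98%) were, and 7 of the 10 had an unadjusted P below 0.05, against 26.1% of all genes. DESeq2 called 3 of the 10 (PABPN1, PABPC1 and PABPC4, all with the higher response in the transgene line), against 12.6% of all genes called and 4.98% called higher. In edgeR, PABPC1 changed by 0.22 after induction and by -1.58 with doxycycline in the parental line. PABPC4 changed by 0.38 and -1.72, and none of these changes was called. The response of PABPN1 was 2.11 higher on the log2 scale in the transgene line (standard error 0.63, adjusted P = 0.0644 by edgeR), and that of PABPC4 was 1.85 higher (standard error 0.63, adjusted P = 0.0885). For PABPC1 the difference was 1.54 (standard error 0.56, adjusted P = 0.104), for PAN2 2.49 (standard error 0.97, adjusted P = 0.123) and for PAIP1 1.63 (standard error 0.72, adjusted P = 0.164). PAIP2, PAN3 and LARP4 did not reach an unadjusted P of 0.05. For PAIP2, which was called higher after induction, the difference was 0.34 (standard error 0.49, adjusted P = 0.681 by edgeR). Its log2 fold change with doxycycline in the parental line was 0.24. The lines were sequenced at different facilities, on different instruments and to different read lengths, so line and sequencing run cannot be told apart. The parental values in these differences rest on 3 libraries a group, at less depth than those of the transgene line.

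**Figure D4:**
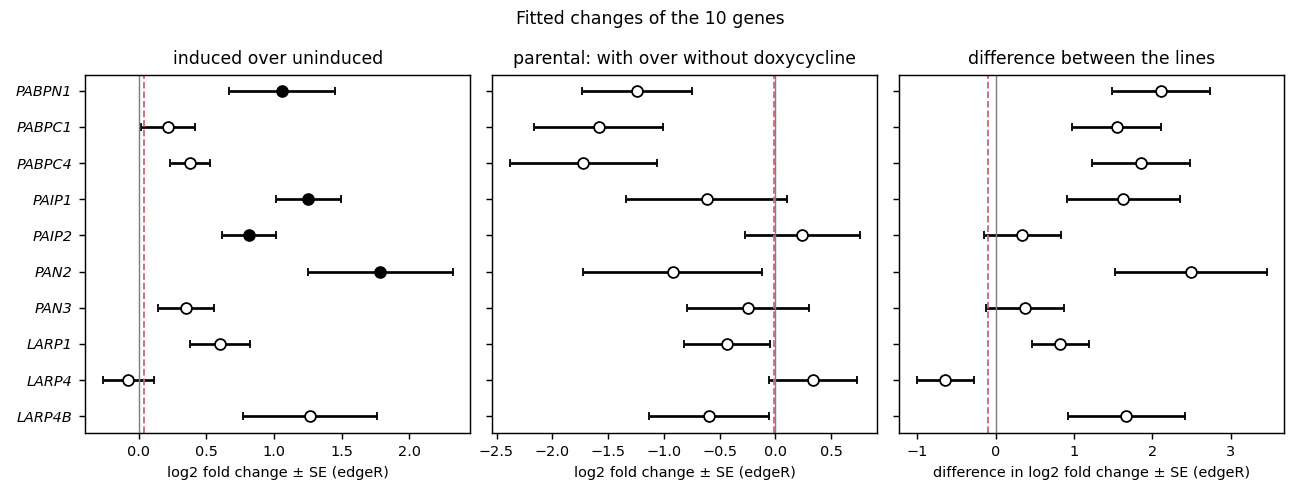
Fitted change of each gene with its standard error (edgeR) for induced over uninduced, for doxycycline in the parental line, and for the difference between the lines, on a log2 scale. Filled points passed an adjusted P of 0.05 (PABPN1, PAIP1, PAIP2 and PAN2, in the first panel), and the dashed line is the median of all genes tested.

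The wider set of poly(A) genes was described from 6 lists holding 60 genes. Of these, 52 passed the filter on low counts in the transgene line, and 20 were called higher and 5 lower, against 20.0% and 19.8% of all genes, with a median log2 fold change of 0.34. The counts of each list below are to be read against the same shares. Among the called genes, the groups did not overlap only for PABPC4L, SSB, ATXN2L, TENT2 and TENT4B, which rose, and PABPC1L, which fell. Of all tested genes, 3.08% did not overlap and were higher. For these lists, fits with 1 library left out or with GC offsets are not given. With total counts alone, 27 were called higher and 0 lower. In the parental line 43 were tested and 0 were called (4 at an unadjusted P below 0.05, none by adjusted P in edgeR).

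Of 8 other poly(A)-binding proteins, 4 were high enough to test, and 1 of these was called higher and 1 lower. PABPC4L, a PABPC4-like gene, rose from 4.30 ± 0.28 to 9.87 ± 2.29 CPM (SD, n = 5 each; log2 fold change 1.20). PABPC1L, a form known from oocytes, fell from 5.83 ± 2.01 to 3.44 ± 0.21 CPM (log2 fold change -0.76). PABPC5 had a log2 fold change of 0.84 and was not called (adjusted P = 0.0544 by edgeR). Of 4 other La-related proteins, only SSB, the La protein itself, was called, and it rose from 70.5 ± 10.7 to 116 ± 24.9 CPM. LARP1B (0.36) and LARP7 (-0.33) were not called.

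Of 15 other proteins that contact PABPC, 6 were called higher and 1 lower. ATXN2L, a stress granule protein, rose from 2.47 ± 0.52 to 37.2 ± 25.5 CPM (log2 fold change 3.90), the largest fitted change in the 6 lists. TOB1, which links PABPC to the CCR4-NOT deadenylase, rose by a log2 fold change of 1.03, and TNRC6C, a scaffold of microRNA silencing, by 0.98. The one that fell, named after its value was seen, was PAIP2B (-0.99), a paralogue of PAIP2.

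Poly(A) polymerases and terminal nucleotidyltransferases, a list that also holds enzymes that add uridines such as TUT4 and TUT7, were called higher in 5 of 12 cases and lower in 0. PAPOLA, the main nuclear poly(A) polymerase, rose from 23.9 ± 12.0 to 47.5 ± 9.32 CPM. TENT4B, a noncanonical poly(A) polymerase, rose from 15.8 ± 0.77 to 28.1 ± 7.29 CPM, and TENT2, a cytoplasmic one, from 0.782 ± 0.25 to 1.98 ± 0.50 CPM. The other two called, named after their values were seen, were TENT4A (log2 fold change 1.51) and the mitochondrial polymerase MTPAP (1.70). Deadenylase subunits were called higher in 3 of 8 cases and lower in 0. These were CNOT8 (log2 fold change 1.42) and CNOT7 (0.80), catalytic subunits of CCR4-NOT, and PARN (0.75), the poly(A)-specific ribonuclease.

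Among 9 nuclear partners of PABPN1 in polyadenylation and decay, 4 were called higher and 3 lower. RBM27 (1.09), RBM26 (0.88) and WDR33 (0.94) rose. WDR33 reads AAUAAA in the cleavage and polyadenylation specificity factor together with CPSF4, and CPSF4 fell (log2 fold change -0.70). CPSF1, the scaffold of that factor (-0.76), and the zinc finger protein ZC3H3 (-0.73) fell too, and FIP1L1, a partner of poly(A) polymerase, rose (0.52). These last 4 were named after their values were seen.

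**Figure D5:**
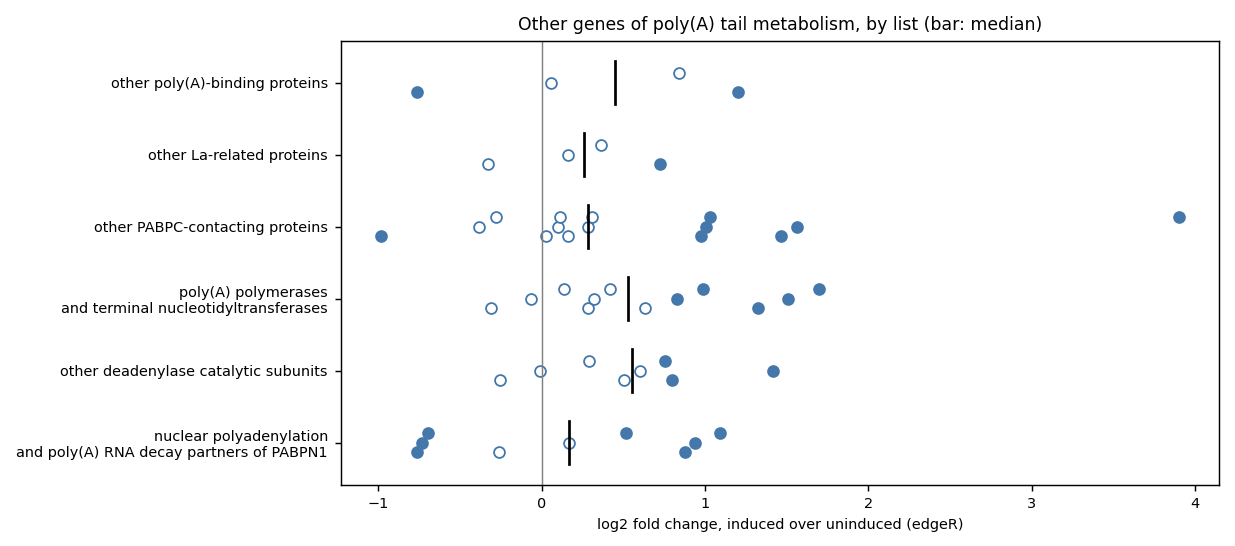
Log2 fold change, induced over uninduced, of the 52 tested genes of the 6 lists (1 circle a gene, placed at 3 heights within a list only to separate them), with the median of each list as a bar. Filled circles passed an adjusted P of 0.05 in edgeR, 20 above 0 and 5 below.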

How the data were processed

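The authors deposited raw counts of sequence tags per Ensembl gene, 1 table per library, which came from Lexogen's pipeline for QuantSeq REV on GRCh38. Not given in the sources used here are the aligner, the annotation release, whether strand was used and whether duplicates were removed. The 92 spike-in rows, all at 0, and 5 summary rows were left out. GENCODE 44 named 56104 of 60107 genes and gave positions and transcript sequences. The 10 genes, the lists and the tests were chosen with earlier results of these data known.

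Genes with a base mean above 20 within the libraries of each comparison were tested with edgeR 4.0.16 under R 4.3.3. Its quasi-likelihood test used TMM scaling, P values were adjusted by Benjamini-Hochberg over all tested genes, and those below 0.05 were called. Standard errors were derived from the fitted change and its F statistic. Ratios used counts plus 0.5 and exact permutation tests (scipy 1.17.1), and were chosen after the data were seen. DESeq2 1.42.0 and sva 3.50.0 served alternatives: DESeq2's test and size factors, total counts, other filters, replicate block, GC offsets (lowess span 0.5), a surrogate variable and leaving libraries out. The named genes were the 10, RNMT, BCL2L2, BCL2L2-PABPN1 and, per list, the 3 genes with the lowest P. Checks on simulated counts with known changes ran first. No pair of libraries within a group agreed within sampling noise.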

Additional observations from a re-analysis of the deposited data

Results flagged for a closer look

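In 20 groups of 5 libraries (10 genes, uninduced and induced), the highest or lowest library was compared with its nearest neighbour, and 6 groups had a gap wide enough to pass Dixon's 95% limit (0.71 of the group's range). Chance alone gives about 1 in 20 such groups, and the groups share libraries. Uninduced replicate 3 was far from the other uninduced libraries for 3 genes, high for PABPC1 (673 CPM) and LARP4 (101 CPM) and low for PAIP2 (49.1 CPM). Uninduced replicate 5 was far above the others for PAN2 (1.34 CPM) and LARP4B (20.9 CPM). Induced replicate 2 was far below the other induced libraries for PAIP1 (20.4 CPM).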

How the results depend on the processing

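Of the 10 genes, 4 were called higher after induction. This became 6 with DESeq2, 3 with its size factors in edgeR (PABPN1 lost, adjusted P = 0.0523), 7 with total counts alone, 0 with 1 surrogate variable, 2 to 7 when each replicate was left out in turn (7 without induced replicate 2, 6 without uninduced replicate 5; 6.99% to 31.2% of all genes were called higher in these fits), and 7 without both of those libraries, a setting chosen after seeing the data. Of all genes, 22.4% were called higher with DESeq2, 18.5% with its size factors and 30.8% with total counts alone. The count of 0 called lower became 1 (LARP4) with GC offsets, with and without the replicate block. Of 13038 genes, 1928 were called lower with GC offsets, and 1867 with the replicate block as well. With GC offsets 5 of the 10 were called higher, against 11.9% of all genes. The replicate block in addition gave 6, against 16.8%. PAIP1 moved from 1.26 to 0.94 with GC offsets and stayed called (adjusted P = 0.0275 by edgeR). LARP4's log2 fold change turned from -0.08 to 0.17 with total counts alone, to 0.13 with 1 surrogate variable, and to 0.061 and 0.014 without uninduced replicate 3 and induced replicate 5 (leave-one-out range -0.16 to 0.061). In the parental line 0 were called under each setting run, though 3 log2 fold changes turned sign with 1 library left out. These were PAIP1 (range -1.62 to 0.053, above 0 without untreated replicate 2), PAN3 (-0.48 to 0.25, above 0 without replicate 3 of either group) and PAIP2 (-0.34 to 0.69, below 0 without treated replicate 2). For the difference between the lines, 0 called higher became 3 with DESeq2 and 2 with total counts alone. Of all genes, 4.98% and 3.77% were called higher in these fits. The count became 0 to 4 when each replicate was left out, against 0% to 8.45% of all genes. These were 4 without uninduced replicate 5 (8.45% of all genes) and 1 without induced replicate 2 (3.40%). Without untreated parental replicate 3 (2.50%) or treated parental replicate 2 (6.39%), 2 were called higher. The causes were not tested. The replicate numbers did not pair the libraries: same-numbered deviations correlated at -0.37 to 0.63 (transgene line) and at -0.42 to 0.24 (parental). With the replicate block, 6 of the 10 were called higher, against 22.5% of all genes. PABPN1 was then at 1.29, PAIP1 at 1.19, LARP1 at 0.66 and LARP4B at 1.56. Depth limits PAN2 (1 to 45 counts per library) and the parental line.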
